A study of Mus musculus with 15 samples.

Results

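Immediate early genes are switched on within minutes of a growth factor, stress or mechanical signal, without new protein synthesis. The 31 described here were given as a list of symbols, and every one was found in both deposited tables by its Ensembl gene ID, among 23347 genes in the progenitor table and 23118 in the preadipocyte table. All 31 passed the filter of a mean normalized count of at least 10 in both populations. They comprise AP-1 and small Maf factors (Fos, Fosb, Fosl1, Fosl2, Jun, Junb, Jund and Maff), EGR zinc fingers (Egr1, Egr2 and Egr3), NR4A nuclear receptors (Nr4a1, Nr4a2 and Nr4a3), KLF zinc fingers (Klf2, Klf6 and Klf10), IER proteins (Ier2, Ier3 and Ier5), MAP kinase phosphatases (Dusp1, Dusp2, Dusp5 and Dusp6), regulators of mRNA decay and proliferation (Zfp36, Zfp36l1, Btg1 and Btg2), and Myc, Arc and Srf.

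RNA was sequenced in bulk from adipocyte precursors sorted from the subcutaneous fat of wildtype C57Bl/6 mouse pups. All pups were cross-fostered and differed in the n6/n3 ratio of the polyunsaturated fatty acids in the milk they drank, high or low, for the first 12 days of life according to one protocol and 10 days according to another. CD24+ cells, labelled progenitors, gave 4 libraries on High n6/n3 milk (numbers 1015, 1017, 1018 and 1019) and 4 on Low n6/n3 milk (108, 114, 119 and 133). CD24- cells, labelled preadipocytes, gave 3 libraries on High n6/n3 milk (1015, 1017 and 1019) and 4 on Low n6/n3 milk (108, 114, 119 and 133). For the 4 preadipocyte libraries on low-ratio milk another label gives the high ratio, and the ratio in the sample characteristics was used. The labels do not say how many pups went into a library, their sex, or whether numbers shared by the populations mark the same animals, so the p-values measure the spread between these libraries, part of which may be technical.

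In the textbook pathway, growth factor receptors activate Ras and the kinases ERK, p38 and JNK, which phosphorylate factors already bound to DNA. SRF with its ternary complex partners binds the CArG box and CREB binds the cyclic AMP response element, and both turn on Fos, the EGR factors and the NR4A receptors. The first proteins made include the transcription factors FOS and JUN, which pair as AP-1, and a set of brakes: DUSP phosphatases that switch the kinases off and ZFP36 proteins that bring short-lived mRNAs to decay. In adipocyte precursors these factors accompany the early response to adipogenic hormones. Enzymatic dissociation of tissue and cell sorting also induce them, so a level in sorted cells holds the state of the tissue and the handling together.

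Promoters were read from RefSeq (GRCm38.p6), from 250 bases before to 50 bases after the start site, and 24 of the 31 genes had a window. Those without one were Fosl1, Egr1, Egr3, Ier2, Klf10, Myc and Arc. A CArG box on either strand (searched by its consensus) was present in the windows of 3 of 24 genes (12.5%), Dusp5, Srf and Zfp36, against 1.57% of all 27025 promoters of the same length. The full cyclic AMP response element TGACGTCA was present in 2 of 24 (8.33%), Btg2 and Dusp1, against 1.86%. Its core TGACG, which also lies inside every full element, was present in 13 of 24 (54.2%) against 20.9%. The EGR site GCGNGGGCG was found in 9 of 24 (37.5%) against 5.56%, and the GC box GGGCGG, which may overlap it, in 19 of 24 (79.2%) against 36.0%. The AP-1 site TGANTCA was present in 1 of 24 (4.17%), Zfp36l1, against 7.89%, and the TATA box TATAAA in 6 of 24 (25.0%) against 14.2%. All motifs were searched on both strands, and a match is a stretch of letters, not a shown binding site. Sequence farther than 250 bases before the start site was not searched, so a gene without a match may hold one there.

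Windows of 4 genes, picked by hand, are given 5′ to 3′ on the gene's strand. Fos (chr12:85473640-85473939, plus strand) and Nr4a2 (chr2:57123954-57124253, minus strand) have the core of the cyclic AMP response element in capitals, on either strand. Zfp36 (chr7:28379179-28379478, minus strand), the member with the highest level, and Srf (chr17:46556113-46556412, minus strand), the factor that binds the CArG box, have CArG boxes in capitals.
Fos: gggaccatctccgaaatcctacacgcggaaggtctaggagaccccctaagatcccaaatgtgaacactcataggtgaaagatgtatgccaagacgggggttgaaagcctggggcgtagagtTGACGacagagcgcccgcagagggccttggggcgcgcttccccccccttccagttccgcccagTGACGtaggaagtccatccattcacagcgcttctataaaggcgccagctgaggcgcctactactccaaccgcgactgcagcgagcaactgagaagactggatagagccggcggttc
Nr4a2: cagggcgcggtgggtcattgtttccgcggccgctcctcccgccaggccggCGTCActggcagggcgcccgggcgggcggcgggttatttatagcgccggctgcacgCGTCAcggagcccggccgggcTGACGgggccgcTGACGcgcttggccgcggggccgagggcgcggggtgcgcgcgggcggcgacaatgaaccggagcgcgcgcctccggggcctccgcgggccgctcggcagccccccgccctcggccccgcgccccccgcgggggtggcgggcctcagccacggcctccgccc
Zfp36: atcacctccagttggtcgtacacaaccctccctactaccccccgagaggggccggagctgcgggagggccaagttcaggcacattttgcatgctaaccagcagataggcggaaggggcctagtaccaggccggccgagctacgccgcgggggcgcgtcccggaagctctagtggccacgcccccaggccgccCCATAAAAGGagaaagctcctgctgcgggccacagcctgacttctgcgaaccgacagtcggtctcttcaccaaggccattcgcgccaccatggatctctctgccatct
Srf: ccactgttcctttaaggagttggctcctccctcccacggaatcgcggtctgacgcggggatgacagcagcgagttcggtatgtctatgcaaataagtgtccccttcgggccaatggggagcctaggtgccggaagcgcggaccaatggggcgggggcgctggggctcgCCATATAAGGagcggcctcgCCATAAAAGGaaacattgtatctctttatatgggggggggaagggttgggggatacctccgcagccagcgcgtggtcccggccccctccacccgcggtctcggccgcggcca
Fos held 2 such cores and Nr4a2 held 4. The CArG box of Zfp36, CCATAAAAGG, began 58 bases before the start site, and the same 10 letters began 62 bases before the start site of Srf, which had a further box 82 bases before it.

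Estimated depth was 13.8 M reads (M, mega) in preadipocyte library 1015, 22.8 M in preadipocyte library 1019 and between 34.4 and 68.7 M in the others. Precursor markers were abundant in both populations. Cd34, a surface marker of precursors, averaged 66093 ± 2657 (SD, n = 4) and 65537 ± 852 (SD, n = 4) normalized counts in progenitors on high- and low-ratio milk, and Cd24a, the sort marker, averaged 2281 ± 442 (SD, n = 4) and 2209 ± 210 (SD, n = 4). In the preadipocyte table Cd24a averaged 631 ± 76.5 (SD, n = 3) and 616 ± 52.1 (SD, n = 4). The 9 leukocyte markers summed to between 12.3 and 40.9 CPM (normalized counts scaled as CPM) in every library, against 3600 to 4540 for the 10 precursor markers. Epithelial markers summed to at most 0.779 CPM, with Krt14 and Krt8 at 0 in progenitors and Krt8 at 0 in preadipocytes.

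Several immediate early mRNAs were among the most abundant of the cells on both milks. The plot of levels by gene gives normalized counts as CPM per kilobase of the longest annotated coding transcript, which allows genes to be compared within a table. On this scale Zfp36, whose protein tristetraprolin sends mRNAs with AU-rich elements to decay, had the highest level of the members, at 1070 ± 161 (SD, n = 8) in progenitors and 1080 ± 247 (SD, n = 7) in preadipocytes. It ranked 24th among the protein-coding genes of the progenitor table and 26th of the preadipocyte table. Fos followed at 790 ± 92.8 (SD, n = 8) CPM per kilobase in progenitors and 935 ± 69.1 (SD, n = 7) in preadipocytes. Egr1, a zinc finger factor that binds GC-rich promoters, stood at 747 ± 62.7 (SD, n = 8) and 743 ± 37.6 (SD, n = 7), and the AP-1 subunit Junb at 579 ± 48.7 (SD, n = 8) and 748 ± 57.1 (SD, n = 7). The ranges of Fos and Egr1 overlapped in both populations. In both, 5 of the 31 members were among the 100 protein-coding genes with the highest level per length, and 17 of 31 were among the first 1000.

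**Figure D1:**
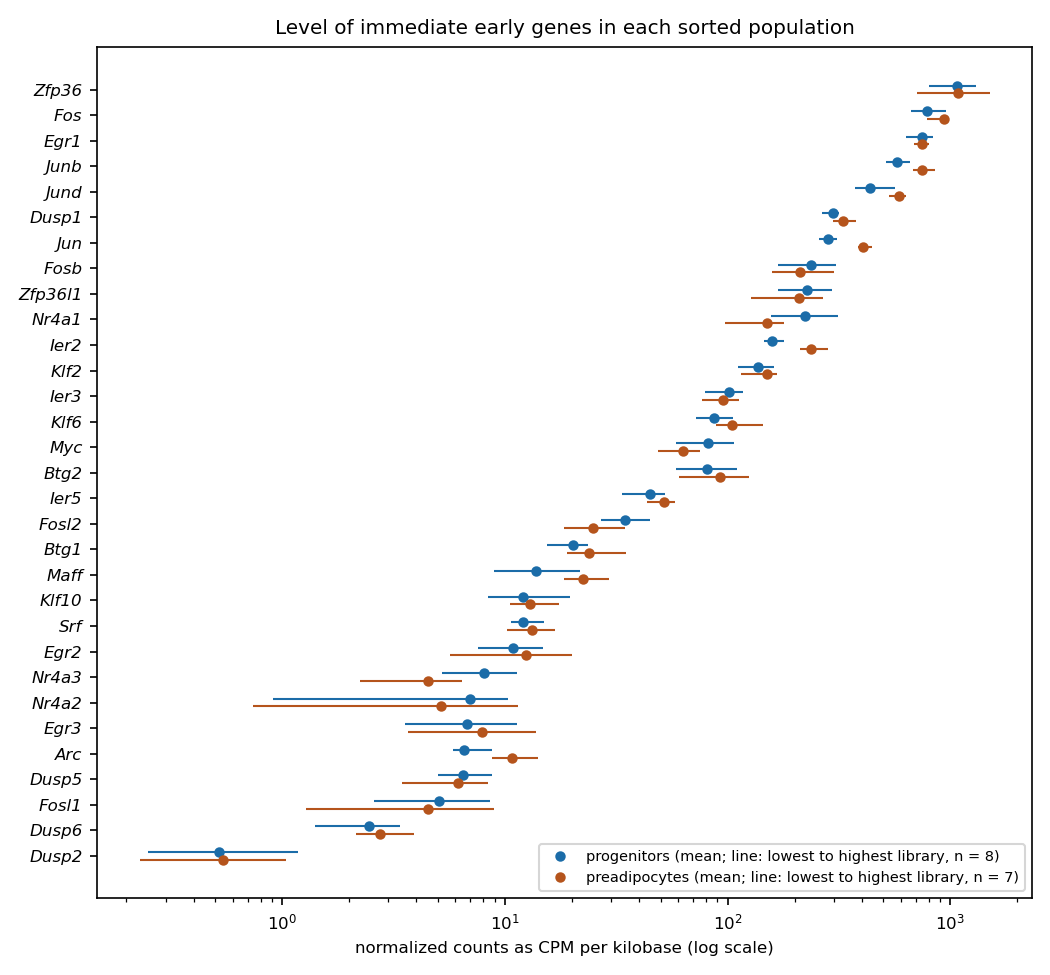
Normalized counts as CPM per kilobase (log axis) of the 31 genes, with the mean as a point and a line from the lowest to the highest library, in blue for the 8 progenitor libraries and orange for the 7 preadipocyte libraries. Zfp36, Fos, Egr1 and Junb lead, Dusp2 is lowest, and Nr4a2 has a wide line in both populations.

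At the lower end, Dusp2, a phosphatase of the ERK and p38 kinases best known from lymphocytes, had 0.518 ± 0.301 (SD, n = 8) CPM per kilobase in progenitors and 0.545 ± 0.243 (SD, n = 7) in preadipocytes. Dusp6, which acts on ERK in the cytoplasm, had 2.46 ± 0.663 (SD, n = 8) and 2.74 ± 0.548 (SD, n = 7). Dusp1, a nuclear phosphatase of p38 and JNK, had 298 ± 20.7 (SD, n = 8) and 330 ± 28.1 (SD, n = 7). The 4 phosphatases thus ranged from rank 131 to rank 11298 among protein-coding genes in progenitors. In the EGR and NR4A families 1 member carried most of the level: Egr1 lay far above Egr2 (10.9 ± 2.15, SD, n = 8, in progenitors) and Egr3 (6.75 ± 2.64, SD, n = 8), and Nr4a1 (222 ± 56.4, SD, n = 8) far above Nr4a3 (8.04 ± 2.43, SD, n = 8) and Nr4a2 (6.98 ± 3.09, SD, n = 8) on that per-length scale. The AP-1 level was spread over more members. Besides Fos and Junb, Jund had 437 ± 64.9, Jun 281 ± 16.1 and Fosb 237 ± 49.4 (SD, n = 8 each) in progenitors.

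The populations were put into separate tables by the authors, each normalized on its own, so shares of all normalized counts were set side by side for the 7 numbers that occur in both, without a test. In 9 of 31 members (29.0%) the share was higher in preadipocytes for all 7 numbers, as it was in 12.3% of the 15354 genes tested in both tables. Among these were Jun (median ratio of preadipocyte to progenitor 1.38, range 1.37 to 1.61), Junb (1.24, 1.13 to 1.49), Jund (1.42, 1.07 to 1.60), Ier2 (1.45, 1.22 to 1.94) and Arc (1.61, 1.39 to 1.88), the last a regulator of synapses named for its activity in neurons. The other members of this set were Ier5, Klf6, Dusp1 and Maff. In 3 of 31 members (9.68%, against 4.46% of those genes) the share was higher in progenitors for all 7 numbers, namely Fosl2 (median ratio 0.692, range 0.460 to 0.867), Nr4a1 (0.696, 0.496 to 0.907) and Nr4a3 (0.502, 0.356 to 0.984). The remaining 19 members had both orders. Fos was higher in preadipocytes for 6 of 7 numbers (median ratio 1.27, range 0.960 to 1.46) and Fosb for 1 of 7 (0.898, 0.644 to 1.14). Mitochondrial transcripts also differed between the tables, at 1.78% to 2.72% of counts in progenitors and 2.50% to 6.35% in preadipocytes, and their part in these ratios was not tested.

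The comparison of milks asks whether the fatty acid ratio drunk after birth changes the expression of precursor genes. No immediate early gene differed between the milks at an adjusted p under 0.05 in either population, by limma over all genes tested. In progenitors 0 of 31 members passed, against 0.0% of 15973 genes. In preadipocytes 0 of 31 passed, against 2.88% of 15893 genes. At an unadjusted p under 0.05 the members numbered 4 of 31 in progenitors, where 6.88% of all genes passed, and 3 of 31 in preadipocytes, where 21.7% passed. The authors' deposited table gives Egr3 alone, 1 member, an adjusted p under 0.05 in progenitors (0.615% of 15923 genes) and 0 members in preadipocytes (11.9% of 15470 genes).

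**Figure D2:**
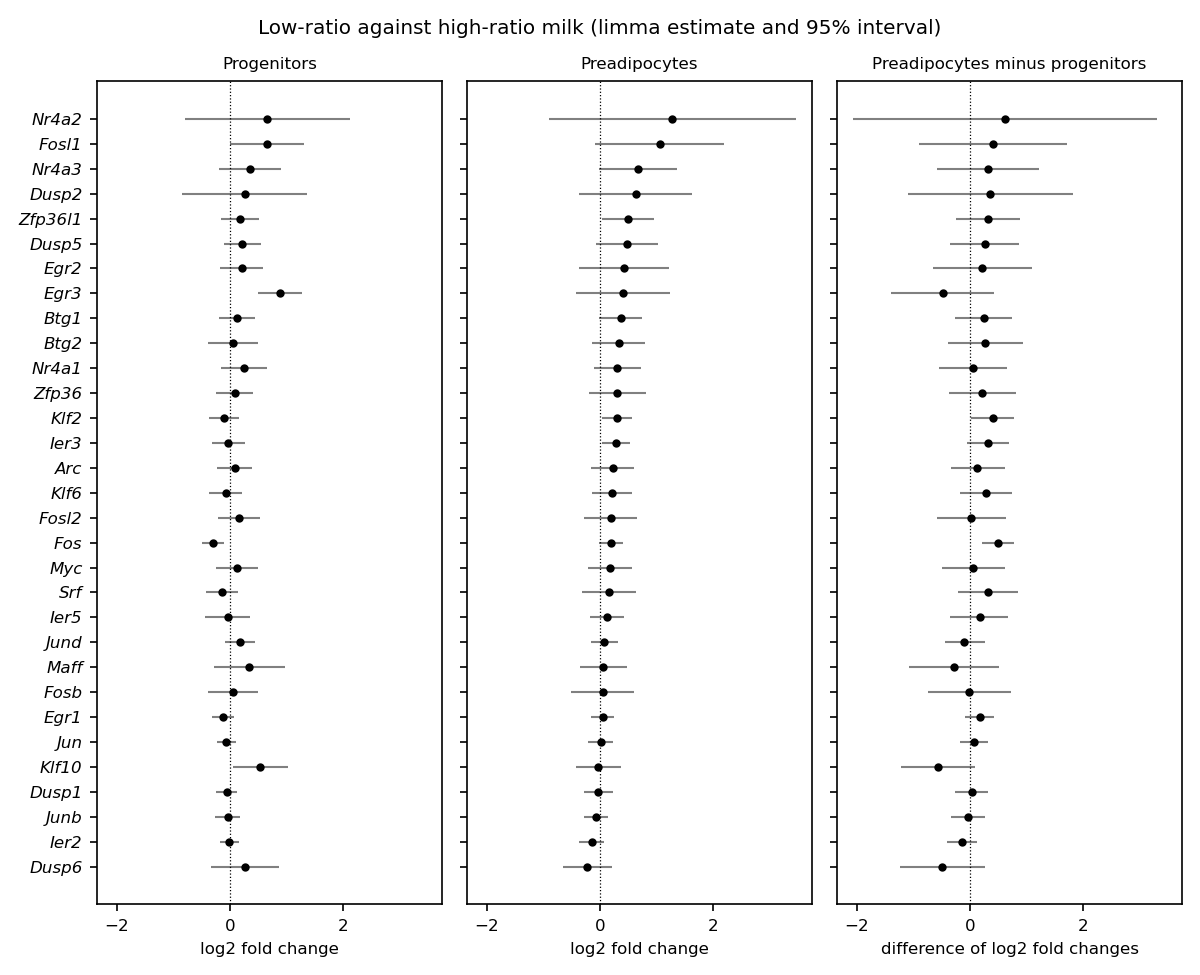
Estimated log2 fold change of low-ratio against high-ratio milk for each of the 31 genes (points) with its 95% interval (lines), from limma, in progenitors, in preadipocytes, and the difference between the populations. Most intervals cross 0 (dotted). Those that do not are Egr3 (0.50 to 1.27), Fos (-0.49 to -0.11), Klf10 (0.06 to 1.02) and, barely, Fosl1 in progenitors, Ier3, Klf2 and Zfp36l1 in preadipocytes, and Fos and Klf2 for the difference, and Nr4a2 has a wide interval in all 3 panels.

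The estimates leaned to the low-ratio side without reaching the threshold. In progenitors 20 of 31 members were higher on low-ratio milk (49.5% of all genes), with a median log2 fold change of 0.12 against 0.00 over all genes. In preadipocytes 26 of 31 were higher (54.1% of all genes), with a median of 0.21 against 0.04. Both medians were smaller without library 1015 (-0.01 in progenitors and 0.07 in preadipocytes) or without library 119 (0.01 and 0.12). These libraries lie at opposite ends of the members' levels, as described with the heat map. Without both, the median was -0.05 in progenitors and -0.01 in preadipocytes, where 13 of 31 members were then higher, a setting chosen after seeing the data. Because 1015 was the lowest high-ratio and 119 the highest low-ratio library for most members, leaving out either was bound to lower such estimates. Members also have a higher GC content than other genes (median 55.5% against 50.3%). With the trend on GC content and length removed, the members' medians were 0.05 in progenitors and 0.13 in preadipocytes. The medians over all genes were then -0.03 and 0.03. In that setting 20 of 31 members were higher on low-ratio milk in progenitors and 19 of 31 in preadipocytes. Estimates of erythroid markers were below 0. Of 5, 0 were higher on low-ratio milk in either population (49.5% and 54.1% of all genes), with median log2 fold changes of -0.62 and -1.01. By limma 0 were called in either (0.0% and 2.88% of all genes), and in preadipocytes 4 of 5 had an unadjusted p under 0.05 (21.7% of all genes). Their summed level ranged from 135 to 695 CPM in high-ratio and 77.5 to 320 CPM in low-ratio libraries of progenitors, and from 57.8 to 223 and 32.2 to 69.3 CPM in those of preadipocytes. Their part in the members' values was not tested.

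Egr3 (ENSMUSG00000033730, GRCm38 chr14:70077203-70082614, plus strand), a zinc finger factor needed for the muscle spindles of mice, had the smallest p of the members in progenitors. Its normalized counts there were 586, 824, 780 and 866 in libraries 1015, 1017, 1018 and 1019 on high-ratio milk, and 1415, 1288, 1829 and 1142 in libraries 108, 114, 119 and 133 on low-ratio milk. All 4 low-ratio libraries lay above all 4 high-ratio libraries, as was the case for 2.03% of all genes. The log2 fold change was 0.88 ± 0.17 (SE), with a limma adjusted p of 0.479. The authors' deposited table gives a log2 fold change of 0.89 with an adjusted p of 0.0024. Of 5 endothelial markers, 4 were higher on low-ratio milk in progenitors (49.5% of all genes), and 0 passed the threshold by limma. Cdh5, a junction protein of endothelial cells, had the smallest p of the 5. It averaged 1120 ± 273 (SD, n = 4) and 2145 ± 905 (SD, n = 4) normalized counts, with a limma adjusted p of 0.656. Tek, the most abundant of the 5, was the marker that was not higher, with a log2 fold change of -0.07 ± 0.18 (SE). Its high- and low-ratio means were 8747 ± 1697 and 8388 ± 1707 (SD, n = 4 each) normalized counts. Summed, the 5 ranged from 215 to 307 CPM in the high-ratio libraries and from 282 to 332 in the low-ratio libraries. Most of that sum was Tek. The part of endothelial markers in the Egr3 values was not tested. In bulk RNA, fewer cells of a type and less RNA per cell cannot be told apart.

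In preadipocytes Egr3 had 484, 1233 and 1077 normalized counts in libraries 1015, 1017 and 1019 on high-ratio milk, and 840, 1025, 1906 and 1033 in libraries 108, 114, 119 and 133 on low-ratio milk. These groups overlapped, and the log2 fold change was 0.40 ± 0.37 (SE) with a limma adjusted p of 0.557. Without libraries 1015 and 119 the estimate was 0.63 in progenitors and -0.26 in preadipocytes. Egr1 varied little by comparison. Its counts were 131288, 160482, 147134 and 138228 in the high-ratio libraries and 136554, 139218, 116037 and 138783 in the low-ratio libraries in progenitors, in the library order given above. In preadipocytes they were 103264, 118856 and 117775 in the high-ratio libraries and 108941, 114839, 125632 and 118454 in the low-ratio libraries. The Egr1 estimates were -0.12 ± 0.08 (SE) and 0.05 ± 0.09 (SE), and the groups overlapped in both tables. The ratio of Egr3 to Egr1 counts in progenitors was 0.00529 ± 0.000743 (SD, n = 4) with the high ratio and 0.0109 ± 0.00336 (SD, n = 4) with the low ratio. Egr2, which also serves myelinating Schwann cells, had estimates of 0.21 ± 0.17 (SE) and 0.42 ± 0.35 (SE).

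Fos (ENSMUSG00000021250, GRCm38 chr12:85473890-85477273, plus strand) differed in the sign of its estimate between the populations. In progenitors its normalized counts were 68171, 85515, 74843 and 76044 in the high-ratio libraries, and 56450, 62801, 59103 and 68791 in the low-ratio ones. A single pair overlapped there, high-ratio library 1015 lying just under low-ratio library 133. In preadipocytes the counts were 55853, 66189 and 67700 in the high-ratio libraries, and 67804, 72839, 71134 and 76556 in the low-ratio ones, with every low-ratio library above every high-ratio one, the nearest by a narrow margin. Low-ratio groups without overlap from above were seen for 2 of 31 members in preadipocytes, Fos and Ier3, and for 10.1% of all genes. No member lay below without overlap in either population, against 2.02% of genes in progenitors and 11.0% in preadipocytes.

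The log2 fold change of Fos was -0.30 ± 0.09 (SE) in progenitors, with a limma adjusted p of 0.591, and 0.19 ± 0.10 (SE) in preadipocytes, with an adjusted p of 0.278. The test of the difference itself gave 0.49 ± 0.13 (SE, 95% interval 0.22 to 0.77), with a limma adjusted p of 0.0584. The call thus missed the threshold, and over 26 alternatives the adjusted p ranged from 0.0297 to 0.204. In that comparison 0 of 31 members passed, against 2.28% of 15354 genes, and 2 of 31 had an unadjusted p under 0.05, against 17.6%. The signed difference, preadipocyte minus progenitor log2 fold change, was above 0 for 23 of 31 members, against 54.1% of all genes, with a median difference of 0.17 against 0.05. Without preadipocyte library 1015, the shallowest, that median was 0.00.

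**Figure D3:**
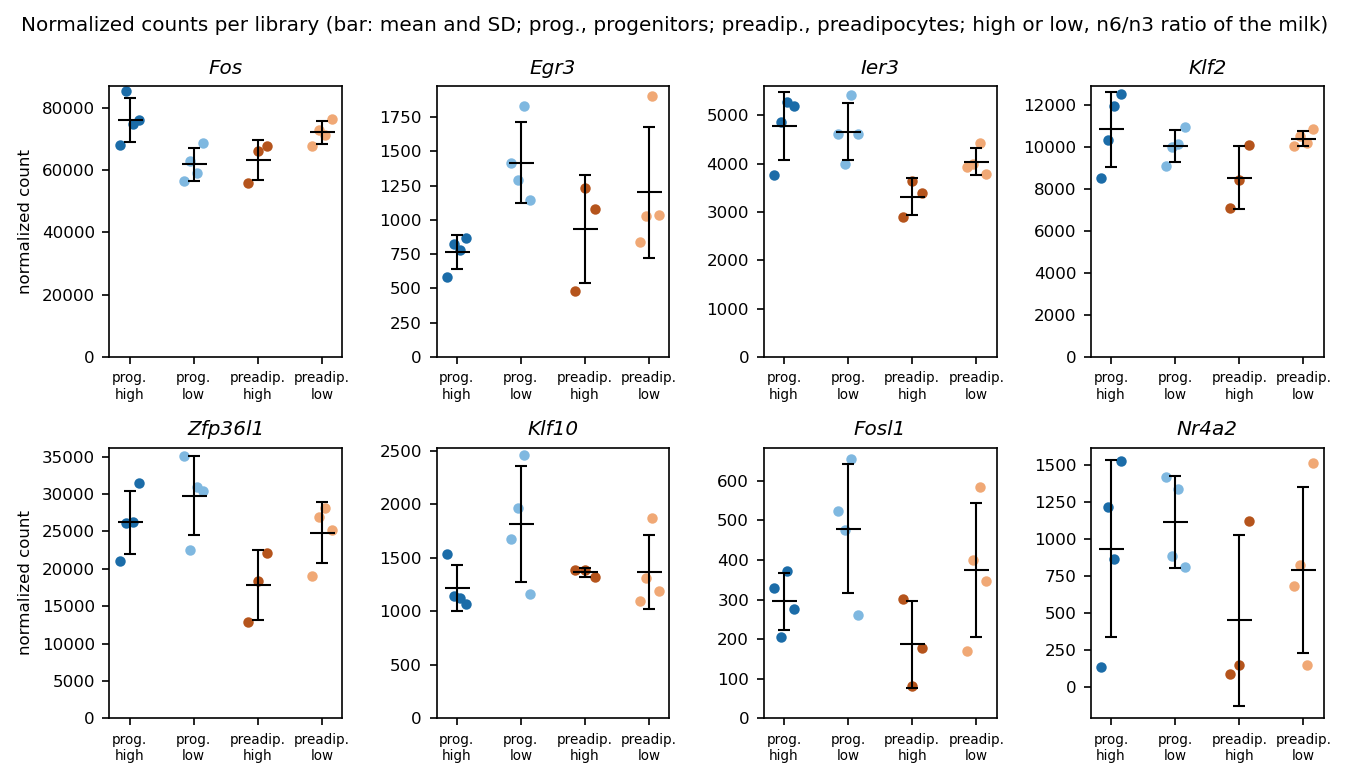
Normalized counts per library (linear axis) for 8 genes, with points for libraries and bars for the mean and SD, in progenitors and preadipocytes on high- and low-ratio milk (n = 4, 4, 3 and 4). The mean of Fos is lower on low-ratio milk in progenitors and higher in preadipocytes, short of the threshold, Egr3 separates the milks in progenitors, and Nr4a2 is low in 1 of 8 progenitor and 3 of 7 preadipocyte libraries.

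Jun, an AP-1 partner of Fos, had a log2 fold change of -0.06 ± 0.07 (SE) in progenitors and 0.01 ± 0.10 (SE) in preadipocytes, and Junb had -0.04 ± 0.10 (SE) and -0.07 ± 0.10 (SE). The ratio of Fos to Jun counts was 2.01 ± 0.12 (SD, n = 4) with the high ratio and 1.70 ± 0.12 (SD, n = 4) with the low ratio in progenitors, with ranges of 1.85 to 2.13 and 1.57 to 1.81. In preadipocytes it was 1.42 ± 0.0537 (SD, n = 3) and 1.61 ± 0.124 (SD, n = 4), with ranges of 1.36 to 1.45 and 1.43 to 1.68. Jund, an AP-1 subunit with a steadier level in most cells, had 26163, 27933, 29521 and 28642 normalized counts on high-ratio milk in progenitors and 28832, 25776, 38649 and 35260 on low-ratio milk. Its groups overlapped, with a log2 fold change of 0.18 ± 0.12 (SE). In preadipocytes Jund had 29733, 34060 and 34815 in the high-ratio libraries and 30221, 37403, 35520 and 36086 in the low-ratio libraries.

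Fosl1, the FOS relative FRA1 of invasive and differentiating cells, is expressed at far fewer counts and varied more. In progenitors it had 328, 205, 373 and 275 normalized counts in high-ratio libraries and 524, 476, 655 and 262 in the low-ratio libraries, for a log2 fold change of 0.66 ± 0.29 (SE) with a limma adjusted p of 0.723. In preadipocytes the counts were 301, 81.9 and 178 in the high-ratio libraries and 171, 399, 583 and 346 in the low-ratio libraries, for a log2 fold change of 1.06 ± 0.50 (SE) with an adjusted p of 0.26. The milks overlapped in both tables. Fosl1 overlaps Ccdc85b on the other strand, Jun overlaps Junos, Junb overlaps Prdx2 and Jund overlaps Gm11175, and the strand setting of the quantification is not given in the sources used here, so reads of such pairs may have been split between them. Fosb and Fosl2 had estimates of 0.06 ± 0.20 and 0.16 ± 0.17 (SE) in progenitors and 0.05 ± 0.25 and 0.19 ± 0.21 (SE) in preadipocytes. Maff, a small Maf protein without an activation domain, had 0.34 ± 0.28 (SE) and 0.06 ± 0.18 (SE).

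Among the IER proteins, Ier3 (ENSMUSG00000003541, GRCm38 chr17:35821684-35822923, plus strand), a stress-induced regulator of cell survival, had the smallest p of the members in preadipocytes. Its normalized counts were 2906, 3650 and 3400 in the high-ratio libraries and 3923, 4003, 4437 and 3792 in the low-ratio libraries, so that the milks did not overlap. The log2 fold change was 0.29 ± 0.11 (SE), with a limma adjusted p of 0.17. In progenitors Ier3 had 3758, 4875, 5285 and 5198 in the high-ratio libraries and 4621, 3986, 5428 and 4622 in the low-ratio libraries, with an estimate of -0.03 ± 0.13 (SE) and full overlap. The difference between the populations was 0.32 ± 0.18 (SE), with an adjusted p of 0.378. Ier2, the family's most abundant member, had 9221, 10584, 10574 and 9649 in the high-ratio libraries and 8963, 10600, 9987 and 10350 in the low-ratio libraries in progenitors. In preadipocytes Ier2 had 14338, 13631 and 11504 in the high-ratio libraries and 12645, 11722, 11262 and 11945 in the low-ratio libraries, an estimate of -0.14 ± 0.10 (SE). Ier5 had -0.04 ± 0.18 (SE) and 0.13 ± 0.13 (SE) in the respective tables.

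The KLF factors had estimates of different sign, none past the threshold. Klf2 (ENSMUSG00000055148, GRCm38 chr8:72319033-72321656, plus strand), known from mouse cells as a brake on adipocyte differentiation, had 7098, 8426 and 10088 normalized counts in high-ratio libraries and 10059, 10520, 10191 and 10872 in the low-ratio libraries in preadipocytes. The low-ratio libraries lay close together, and high-ratio library 1019 lay among them. The log2 fold change was 0.30 ± 0.12 (SE), with a limma adjusted p of 0.194. Without preadipocyte library 1019 it was 0.43 with an adjusted p of 0.0443, and over 17 alternatives the adjusted p reached 0.562. In progenitors Klf2 had 8545, 10344, 11971 and 12526 in the high-ratio libraries and 9105, 9987, 10132 and 10979 in the low-ratio libraries, an estimate of -0.10 ± 0.12 (SE). The difference between the populations was 0.40 ± 0.18 (SE, adjusted p = 0.261).

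Klf10, a factor induced by TGF-beta, had 1531, 1144, 1126 and 1066 normalized counts on high-ratio milk in progenitors and 1679, 1967, 2457 and 1162 on low-ratio milk. Of the low-ratio libraries 133 alone lay among the high-ratio values, and the log2 fold change was 0.54 ± 0.22 (SE), with a limma adjusted p of 0.698. In preadipocytes it had 1383, 1390 and 1317 in the high-ratio libraries and 1097, 1315, 1870 and 1187 in the low-ratio libraries, an estimate of -0.03 ± 0.18 (SE). The difference between the populations was -0.57 ± 0.30 (SE, adjusted p = 0.357). Klf6 had estimates of -0.07 ± 0.13 (SE) and 0.21 ± 0.16 (SE).

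The genes of mRNA decay and growth arrest had estimates above 0 in all 4 cases in both tables, none of which passed the threshold. Without library 1015 the progenitor estimates were -0.03 for Zfp36 and -0.07 for Btg2, and without 1015 and 119 the preadipocyte estimates of these genes were -0.05 and -0.01. Zfp36l1 (ENSMUSG00000021127, GRCm38 chr12:80107754-80113013, minus strand), a relative of tristetraprolin, had 12848, 18407 and 22165 normalized counts on high-ratio milk in preadipocytes and 19013, 26973, 28136 and 25183 on low-ratio milk. Low-ratio library 108 was within the high-ratio range and the other 3 lay above it, with a log2 fold change of 0.50 ± 0.20 (SE) and a limma adjusted p of 0.194. In progenitors it had 21028, 26089, 26194 and 31491 in the high-ratio libraries and 35113, 22522, 30963 and 30463 in the low-ratio libraries, an estimate of 0.18 ± 0.15 (SE). Zfp36 itself had 93573, 138355, 124089 and 124738 in the high-ratio libraries and 135834, 100176, 149524 and 125166 in the low-ratio libraries in progenitors. In preadipocytes Zfp36 had 66359, 105508 and 104167 in the high-ratio libraries and 81482, 118979, 146455 and 107786 in the low-ratio libraries. Its groups overlapped in both tables, with estimates of 0.09 ± 0.14 (SE) and 0.31 ± 0.22 (SE), and its lowest and highest preadipocyte values were those of libraries 1015 and 119.

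Btg1, an antiproliferative partner of the deadenylase complex, had 3193, 3805 and 3558 normalized counts on high-ratio milk in preadipocytes and 3643, 4564, 6122 and 4115 on low-ratio milk. The groups overlapped through library 108, and the log2 fold change was 0.37 ± 0.17 (SE) with a limma adjusted p of 0.25. In progenitors Btg1 had 3215, 4307, 3840 and 4561 in the high-ratio libraries and 4513, 3363, 4641 and 4926 in the low-ratio libraries, an estimate of 0.13 ± 0.14 (SE). Btg2 had 0.06 ± 0.20 (SE) in progenitors and 0.33 ± 0.20 (SE) in preadipocytes.

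The NR4A receptors, orphan nuclear receptors whose activity is set mainly by how much is made, had estimates above 0 in both tables and wide errors, of which that of Nr4a2 in progenitors was below 0 without library 1015. Nr4a1 had 16755, 20785, 21120 and 25770 normalized counts on high-ratio milk in progenitors and 31866, 29612, 20810 and 19568 on low-ratio milk, where libraries 108 and 114 exceeded all others. In preadipocytes it had 8336, 12806 and 14788 in the high-ratio libraries and 12988, 15297, 16140 and 13497 in the low-ratio libraries, and the estimates were 0.25 ± 0.18 (SE) and 0.31 ± 0.19 (SE). Nr4a3 had 429, 648 and 957 on high-ratio milk in preadipocytes and 675, 1298, 1232 and 1035 on low-ratio milk, for a log2 fold change of 0.68 ± 0.30 (SE) with a limma adjusted p of 0.24. Low-ratio library 108 alone fell within the high-ratio range. In progenitors Nr4a3 had 1246, 1600, 1332 and 2550 in the high-ratio libraries and 2305, 1453, 2658 and 2042 in the low-ratio libraries, an estimate of 0.36 ± 0.25 (SE).

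Nr4a2 (ENSMUSG00000026826, GRCm38 chr2:57106830-57124003, minus strand), singled out after its values were seen, varied more between libraries than any other member. In progenitors library 1015 had 136 normalized counts, against 1216, 867 and 1531 in the other high-ratio libraries and 1422, 889, 1341 and 810 in the low-ratio ones. In preadipocytes it had 88.3, 151 and 1121 in the high-ratio libraries and 684, 829, 152 and 1513 in the low-ratio libraries, so that libraries 1015, 1017 and 119 were low and the other 4 high. The highest value was 11.3 times the lowest in progenitors and 17.1 times in preadipocytes. Of these 4 low values 3 were in high-ratio libraries (progenitor 1015, preadipocyte 1015 and 1017) and 1 in a low-ratio library (preadipocyte 119). The estimates of 0.66 ± 0.65 (SE) and 1.28 ± 0.96 (SE) had errors of similar size, with limma adjusted p values of 0.841 and 0.468. Without library 1015 the progenitor estimate was -0.12, and the authors' deposited table gives a log2 fold change of 0.25 with all libraries.

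Of the MAP kinase phosphatases, Dusp5, a nuclear phosphatase specific to ERK, had 517, 632, 650 and 636 normalized counts on high-ratio milk in progenitors and 720, 615, 891 and 640 on low-ratio milk, an estimate of 0.22 ± 0.15 (SE). In preadipocytes Dusp5 had 287, 528 and 494 in the high-ratio libraries and 470, 615, 725 and 576 in the low-ratio libraries, an estimate of 0.48 ± 0.24 (SE) with a limma adjusted p of 0.283. Library 1015 had the lowest value of its group in both tables. Dusp6 had 164, 358, 208 and 318 in the high-ratio libraries and 234, 302, 386 and 303 in the low-ratio libraries in progenitors, and 366, 253 and 251 against 235, 276, 250 and 221 in preadipocytes. Its estimates were 0.27 ± 0.27 (SE) and -0.22 ± 0.19 (SE), and the difference between the populations was -0.49 ± 0.35 (SE, adjusted p = 0.508). Dusp1 varied least of the 4. It had 22029, 26200, 25459 and 26084 in the high-ratio libraries and 25241, 23168, 21720 and 25914 in the low-ratio libraries in progenitors, and 19806, 23565 and 25839 against 20763, 24276, 21038 and 24009 in preadipocytes. Its estimates were -0.05 ± 0.08 (SE) and -0.03 ± 0.11 (SE). Dusp2 had estimates of 0.26 ± 0.49 and 0.63 ± 0.44 (SE) on mean counts of 23.2 to 39.3 per group.

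Myc, the growth regulator that blocks adipocyte differentiation when kept high in cultured mouse cells, had 5706, 8025, 8203 and 8271 normalized counts on high-ratio milk in progenitors and 9972, 6092, 8098 and 8840 on low-ratio milk. In preadipocytes Myc had 3817, 5224 and 5275 in the high-ratio libraries and 4186, 6142, 6143 and 5146 in the low-ratio libraries. The milks overlapped in both, with estimates of 0.12 ± 0.17 (SE) and 0.18 ± 0.17 (SE). Arc had 0.09 ± 0.14 (SE) and 0.23 ± 0.17 (SE), and Srf had -0.14 ± 0.13 (SE) and 0.16 ± 0.21 (SE).

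Libraries of the same milk differed from one another across most members. Library 1015 had the lowest value of its table for 15 of 31 members in progenitors and 20 of 31 in preadipocytes. Library 119 had the highest for 16 of 31 and 19 of 31. How often all genes had their lowest or highest value in these libraries was not counted. The median member lay 0.32 log2 units below its table's mean in progenitor library 1015 and 0.28 above it in progenitor library 119.

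**Figure D4:**
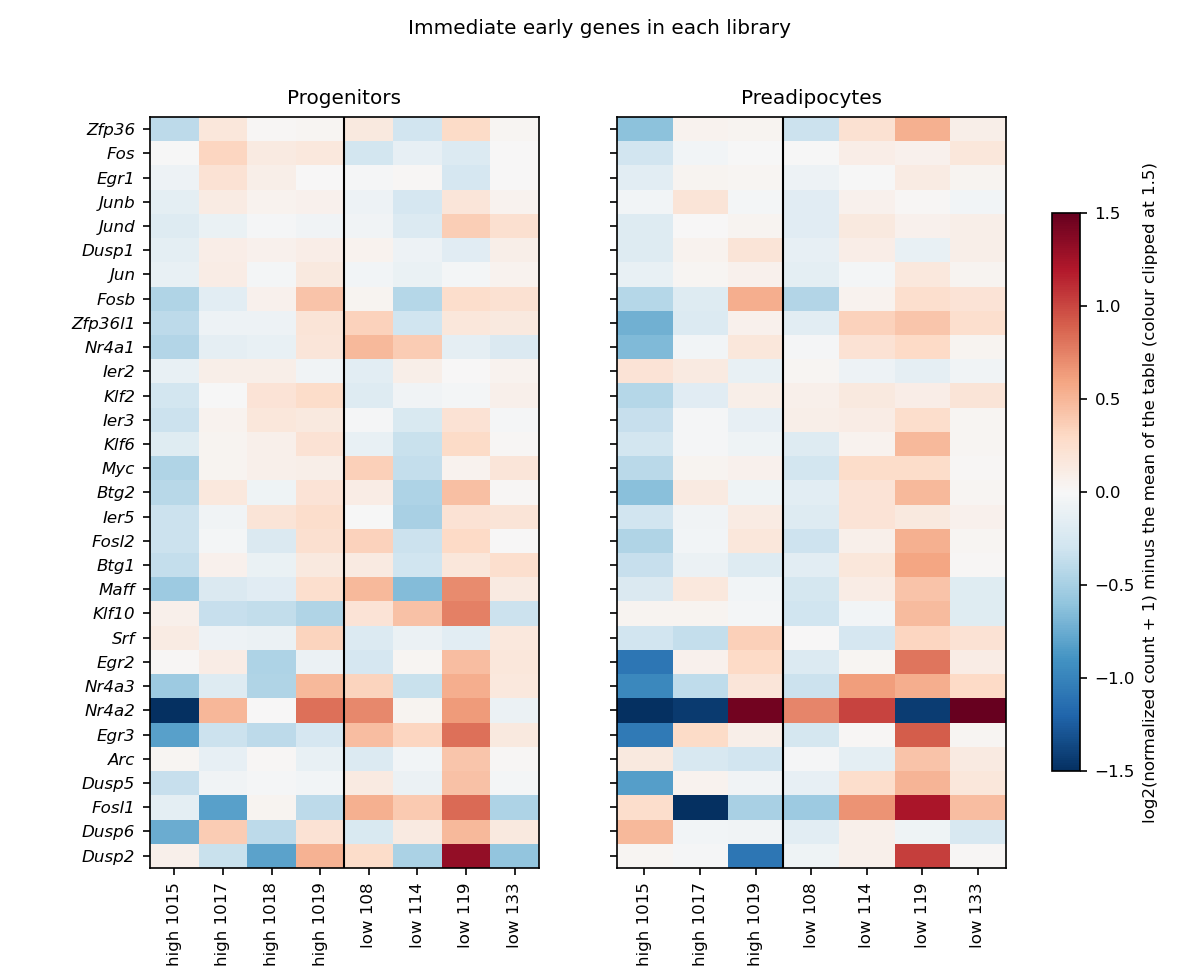
Heat map of log2(normalized count + 1) minus the gene's mean over the table, with genes in rows by level and libraries in columns by milk, in progenitors and preadipocytes (colour clipped at 1.5). Most members are below their mean in library 1015 and above it in library 119, in both populations.

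In preadipocytes the median deviation of the members was -0.29 in library 1015 and 0.32 in library 119. The median over all genes tested was between -0.01 and 0.02 in every library. A list of 34 other early response genes had medians of -0.30 and 0.28 in progenitor libraries 1015 and 119, and -0.26 and 0.31 in the preadipocyte libraries of those numbers. The same was not seen for 21 kinases upstream in progenitors, with medians of 0.02 and 0.01, whereas in preadipocytes they had -0.18 and 0.17. Heat shock genes, which handling of tissue also induces, had -0.02 and 0.04 in progenitors and 0.19 and 0.34 in preadipocytes. Counted within groups, library 1015 had the lowest value for 25 of 31 members in progenitors and 24 of 31 in preadipocytes. Library 108 was less consistent. It had the lowest value of its group for 7 of 31 members in progenitors and 25 of 31 in preadipocytes. Taken over all members, the share of normalized counts was 1.32% to 1.64% in progenitors and 1.40% to 1.92% in preadipocytes, with library 1015 the lowest in both tables.

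Preadipocyte library 1015 was also the shallowest and had the highest share of mitochondrial transcripts, 6.35% of counts, but progenitor library 1015 had 42.6 M reads and 2.16%, within the range of the others. Over preadipocyte libraries the mitochondrial share was 4.54% to 6.35% in the high-ratio group and 2.50% to 3.03% in the low-ratio group, with no overlap. Its part in the members' values was not tested. The spread within groups was close to or above that of other genes. The median coefficient of variation of the 30 members with a mean of at least 100 was 16.2%, 18.6%, 17.4% and 17.5% in progenitors on high- and low-ratio milk and preadipocytes on high- and low-ratio milk. Over all genes with such a mean it was 12.7%, 16.7%, 16.1% and 13.7%.

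The genes around the immediate early response also had few calls. Of the 21 upstream kinases none passed the threshold in either population by limma. In preadipocytes 19 of 21 were higher on low-ratio milk (54.1% of all genes), with a median log2 fold change of 0.19, and 6 of 21 had an unadjusted p under 0.05 (21.7% of all genes). Map2k2, a kinase that activates ERK, averaged 1959 ± 313 (SD, n = 3) and 2586 ± 284 (SD, n = 4) normalized counts, and its log2 fold change was 0.41 ± 0.14 (SE) with a limma adjusted p of 0.145. In progenitors 4 of 21 kinases were higher (49.5% of all genes), with a median of -0.05 and 2 at an unadjusted p under 0.05 (6.88% of all genes), and Nras, the Ras protein above them, had -0.34 ± 0.12 (SE) with an adjusted p of 0.656.

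SRF partners and CREB factors, a list that also holds coactivators, had 0 of 11 calls in each population and medians of 0.00 and 0.01. The coactivator Crtc3 in preadipocytes had 0.36 ± 0.15 (SE) with a limma adjusted p of 0.201. Actin and other targets of SRF with its MRTF partners had 0 calls among 13 genes tested in progenitors and 12 in preadipocytes. Actg1, cytoplasmic gamma-actin, came nearest with 0.40 ± 0.10 (SE) and a limma adjusted p of 0.065 in preadipocytes, but had -0.02 ± 0.06 (SE) in progenitors. Actb, beta-actin, had 0.28 ± 0.09 (SE) and an adjusted p of 0.656 in progenitors, but -0.17 ± 0.11 (SE) in preadipocytes. Other bZIP partners of AP-1 had 0 of 10 calls in each table, with Atf3, a stress-induced factor, at 0.39 ± 0.16 (SE) in preadipocytes and an adjusted p of 0.191.

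The other DUSP phosphatases had 0 of 7 calls in each table, and in preadipocytes 7 of 7 were higher on low-ratio milk (54.1% of all genes), with Dusp8 at 0.70 ± 0.26 (SE) and an adjusted p of 0.168. Other feedback inhibitors of ERK had 0 of 7 calls, with Spry1 at 0.35 ± 0.15 (SE) in progenitors and a limma adjusted p of 0.713. Of the 34 other early response genes none passed. In that list 24 of 34 were higher on low-ratio milk in progenitors (49.5% of all genes), with a median of 0.08 against 0.00. In preadipocytes 27 of 34 were higher (54.1% of all genes), with a median of 0.19 against 0.04. There Rhob, a small GTPase, had 0.27 ± 0.08 (SE) with an adjusted p of 0.106 and Klf4 had 0.54 ± 0.18 (SE) with an adjusted p of 0.138.

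Heat shock genes gave the only calls among these lists. Of 13 genes, 0 passed in progenitors (0.0% of all genes) and 2 fell in preadipocytes. There 2.88% of all genes passed, and 373 of those 458 genes were lower on low-ratio milk. Hspe1, a mitochondrial co-chaperonin, went from 2029 ± 442 (SD, n = 3) normalized counts on high-ratio milk to 1098 ± 107 (SD, n = 4) with the low ratio; its log2 fold change was -0.87 ± 0.16 (SE) with a limma adjusted p of 0.0365. Hsp90aa1, a stress-induced cytosolic chaperone, went from 22234 ± 2450 (SD, n = 3) to 13529 ± 2576 (SD, n = 4); its log2 fold change was -0.73 ± 0.16 (SE) with an adjusted p of 0.0481. Both differed between the populations, by -0.84 ± 0.19 (SE, limma adjusted p = 0.0335) and -0.75 ± 0.17 (SE, adjusted p = 0.0368). The other 11 genes of the list did not pass in preadipocytes, and its median there was -0.07. Hsp90ab1, the constitutive relative of Hsp90aa1, had an estimate of 0.41 ± 0.12 (SE) with an adjusted p of 0.0966. Without libraries 1015 and 119, 0 genes of the preadipocyte table passed the threshold, Hspe1 and Hsp90aa1 included. Both groups are then smaller than the 3 and 4 libraries of the full comparison, so this loss of calls cannot be told from lost power.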

How the data were processed

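Members and gene lists were chosen with earlier results of these data known. Per the labels' protocols, RNA of sorted cells was made into libraries with a NuGEN mRNA kit; per the submitters' processing notes, Salmon 0.14.2 and DESeq2 1.28.1 were used on mm10 or GRCm38. Neither the strand setting nor the annotation release is given in the sources used here. The sample values deposited by the authors are log2-like, after a variance stabilizing transformation, 1 table per population, each normalized on its own. The authors' tables also hold their log2 fold changes, p-values and adjusted p-values.

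The transformation was inverted to normalized counts. Group means recomputed from them differed from the authors' log2 fold changes by a median of 0.000751 (progenitors, 11164 genes with a mean of at least 100) and 0.00304 (preadipocytes, 11076 genes). Depth was estimated from the step between low values; with a tolerance of 0.02, 39.7% to 82.3% of values up to 20 reads came out whole over genes with 1 transcript, so no count test was run, and tests planned for counts were replaced. Groups follow the fatty acid ratio in the sample characteristics.

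Within each table limma 3.58.1 (R 4.3.3) compared the milks on log2(normalized count + 1), with trend and robust options and over genes averaging 10 or more, using Benjamini-Hochberg adjustment over all of them at 0.05. Fold changes are low minus high and understate the change of genes with few reads. The difference between populations was an interaction over 15 libraries. The script was tested on simulated data. Genes were matched to GENCODE M21 on GRCm38 by ID (23322 of 23347 and 23096 of 23118). Values in every library are given for the 6 members with the smallest p in each comparison and the member of each family with the highest level per kilobase; of each pathway list the genes with the smallest p, and of each marker list those with the highest level, could be named. Alternatives covered the pseudocount, the filter, scaling, the GC content, the replicate block and each library left out.

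Of the other marker lists, mature adipocyte genes summed to 1.25 to 6.40 CPM, mural genes to 86.9 to 167, skeletal muscle genes to 2.67 to 36.9, Schwann cell genes to 220 to 346 and erythroid genes to 32.2 to 695. Tek of the endothelial list and Pmp22 of the Schwann list rose in preadipocytes on low-ratio milk, with limma adjusted p values of 0.0469 and 0.0497.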

Additional observations from a re-analysis of the deposited data

Results flagged for a closer look

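A check for a single library far from the rest of its group was run on the 31 members in the 3 groups of 4 libraries, 93 tests in all, of which chance would be expected to mark about 5%. It marked 5 values, close to that chance share, all of them in libraries 1015 or 119. Members tended to deviate together within these libraries, so the 93 tests were not independent. In progenitors on high-ratio milk, library 1015 stood apart as the highest for Klf10 (1531 normalized counts) and as the lowest for Dusp5 (517) and Myc (5706). In progenitors on low-ratio milk, library 119 was the lowest for Egr1 (116037). In preadipocytes on low-ratio milk, library 119 was the highest for Dusp2 (59.0).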

How the results depend on the processing

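No member was called in the comparisons as reported, and most alternatives kept this. The authors' deposited comparison called 1 member in progenitors, Egr3. Leaving out each library in turn gave 0 called members in progenitors, 0 to 1 in preadipocytes (Klf2, without high-ratio library 1019) and 0 to 1 for the difference between the populations (Fos, without progenitor low-ratio library 133, adjusted p = 0.0472, or without preadipocyte high-ratio library 1019, adjusted p = 0.0316). For that difference, a filter at a mean of at least 50 also called 1 member (Fos, adjusted p = 0.0491), as did quantile normalization (Fos, 1 member, log2 difference 0.63, adjusted p = 0.0297). Fewer genes are tested under the stricter filter; for the others the cause was not tested.

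The median log2 fold change of the members ranged over left-out libraries from -0.01 to 0.22 in progenitors, from 0.07 to 0.31 in preadipocytes and from 0.00 to 0.26 for the difference. The lowest came without the 1015 library of the same population in progenitors and preadipocytes, and without preadipocyte library 1015 for the difference. Without progenitor library 1015 the median difference was 0.21. Leaving out 1015 and 119 together, a setting chosen after seeing the data and bound to lower most estimates, moved the preadipocyte median to -0.01. With the trend on GC content and length removed, the difference had a median of 0.03, against 0.07 over all genes. Of 1888 member fold changes under alternatives, 122 changed sign while remaining uncalled. No member was called as reported, so there was no called value that could reverse.

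Over 15354 genes the same-numbered libraries of the populations did not deviate together: the correlation of their deviations from the group means was -0.0594 to 0.091 in 7 pairs, and 2 libraries correlated best with their own number. Over the members alone, median deviations had the same sign in both populations for libraries 1015 (-0.32 and -0.29) and 119 (0.28 and 0.32). With the number as a replicate block, the difference had 0 called members, a median of 0.16 and 43 called genes, against 350 without it, and Fos had an adjusted p of 0.0674.

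Counts of called genes over the whole table moved more. They ranged from 0 to 3 in progenitors. In preadipocytes 458 genes were called, against 2 to 1159 with libraries left out in turn and 0 to 634 under other settings. For the difference 350 were called, against 70 to 849 and 18 to 511.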
